A study of Arabidopsis thaliana with 7 samples.

Results

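The expansins, the xyloglucan endotransglucosylase/hydrolases (XTH), the glycoside hydrolase family 9 endoglucanases (GH9) and the TRICHOME BIREFRINGENCE-LIKE (TBL) genes were examined in Arabidopsis thaliana roots. Members were all genes whose symbol in the platform annotation starts with EXPA, EXPB, EXLA, EXLB, XTH, XTR, TBL or GH9, leaving out EXPA7 and EXPA18, and whose probe set is paired with 1 gene. The rule found 62 genes, among the genes named by 13513 probe sets with 1 gene: 8 EXPA, 4 EXPB, 3 EXLA, 1 EXLB, 9 XTH, 22 TBL and 15 GH9 genes. No symbol started with XTR. A further 4 probe sets of these families were paired with several genes and were not used. Each member had 1 probe set. The annotation pairs only part of the 22810 deposited probe sets with 1 gene, so other genes of these families can be missing. Statements on a family here cover only these members.

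Root RNA was hybridised to 7 one-colour Affymetrix ATH1 arrays, each from a pool of 20 plants. The line carried ANR1, a MADS-box transcription factor linked to the root response to nitrate, fused to the rat glucocorticoid receptor domain under the 35S promoter, a viral promoter active in most plant tissues, in the C24 ecotype. The groups were the line with dexamethasone (1 array, replicate 2), the line without it (2 arrays), the wild type with dexamethasone (2 arrays) and the wild type without it (2 arrays). All plants, controls included, had been deprived of nitrogen for 2 days, and after 9 days were moved for 1 h to plates with 1 µM or 0 µM dexamethasone, a steroid that lets such fusion proteins enter the nucleus. The labels give the wild type as a control without naming its ecotype, and only 1 transgenic line was used, so the transgene, its insertion and a difference in background cannot be told apart.

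The plant primary wall is a network of cellulose microfibrils held in xyloglucan and pectin, and a root cell can elongate only as this network yields. Expansins loosen the network at acid pH without cutting it, XTH enzymes cut xyloglucan chains and join the ends to other chains, and GH9 enzymes hydrolyse β-1,4-glucan. Several TBL proteins work in the Golgi and add acetyl groups to wall polysaccharides such as xylan, mannan and xyloglucan before these are secreted, which need not hold for each member.

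The deposited signals are linear, with a 2% trimmed mean of 100.0 on each array. Of 14 listed root markers 1 was paired with a probe set, PYK10, a β-glucosidase abundant in roots, at 2673 to 3148 on the 7 arrays. Of 13 listed leaf markers 2 were, RCA, the Rubisco activase, at 104 to 235, and LHCB4.1, a light-harvesting protein, at 58.4 to 119.5. Over all tested probe sets log2 signals correlated at 0.958 to 0.988 for arrays sharing a replicate number and at 0.911 to 0.962 for the others. The 3′/5′ signal ratio of the actin control, which rises as RNA or cDNA is shortened, was 1.59 on the untreated line array of replicate 2, 0.876 on the treated wild type array of replicate 2 and 0.251 to 0.528 on the other 5 arrays. For GAPDH, replicate 2 arrays had ratios of 1.18 to 1.55, against 1.05 to 1.12 on replicate 1 arrays. For ubiquitin they had 1.48 to 2.19, against 1.25 to 1.44, so for both controls all 4 arrays of replicate 2 were higher. The mean log2 of the 3 ratios was used as a term in an alternative fit.

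**Figure D1:**
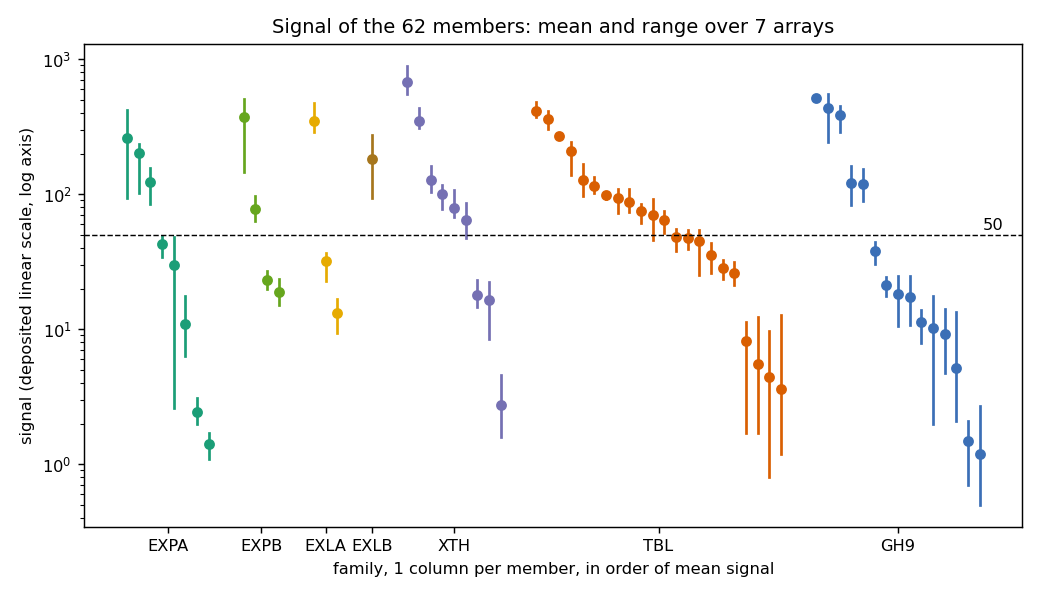
Mean signal (points) and range (lines) over the 7 arrays of each of the 62 members, on a log axis, grouped by family. The dashed line marks a mean signal of 50.0, which 30 members reached, among them 12 of 22 TBL, 6 of 9 XTH and 5 of 15 GH9 genes.

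A mean signal of at least 50.0 was required for testing, and 30 of the 62 members met it. These were 3 EXPA, 2 EXPB, 1 EXLA, 1 EXLB, 6 XTH, 12 TBL and 5 GH9 genes. Mean signals ran from 1.20 to 682, with a median of 47.8 over the 62 genes, and the highest were those of XTH18 and GH9B7. A signal depends on the probes as well as on the transcript, so signals of different genes are given as a description and not as an order of transcript amounts. Fewer cells of a type and less RNA per cell cannot be told apart in whole roots.

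Among the α-expansins, EXPA4 averaged 260.2 ± 103 (SD, n = 7), EXPA15 averaged 202 ± 45.2 and EXPA9 averaged 123 ± 27.3 over the 7 arrays. The other 5 members were below the minimum, from 1.41 for EXPA21 and 2.44 for EXPA24 to 43.1 for EXPA20. Among the β-expansins, EXPB3 averaged 375 ± 121 and EXPB1 averaged 77.5 ± 14.2, against 23.1 ± 2.32 for EXPB2 and 18.8 ± 3.50 for EXPB5. The expansin-like genes encode proteins of the same fold whose wall-loosening activity is not established. EXLA1 averaged 348 ± 64.3 and EXLB1 averaged 182 ± 69.7, whereas EXLA2 (31.9 ± 5.25) and EXLA3 (13.2 ± 2.51) were dim.

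XTH18 and XTH19, members of a group known for expression in growing roots, had the brightest XTH probe sets, at 682 ± 127 and 348 ± 44.3 (SD, n = 7). XTH20 averaged 127 ± 20.8, XTH32 averaged 101 ± 14.7, XTH21 averaged 78.7 ± 14.1 and XTH16 averaged 64.2 ± 13.7. XTH26, described in root hairs, was listed at 1.60 to 4.60, near the bottom of the scale. XTH29 and XTH33 had means of 16.3 and 17.9.

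Of the 15 GH9 endoglucanase genes, 5 passed the minimum and 10 did not. GH9B7, a secreted enzyme of subclass B, averaged 518 ± 21.5 (SD, n = 7). GH9C2 averaged 433 ± 119 and GH9C1 averaged 383 ± 65.1; subclass C enzymes carry a carbohydrate-binding module after the catalytic domain, and GH9C1 is known from root hair cells. GH9B13 averaged 122 ± 32.0 and GH9B8 averaged 120.0 ± 19.2. The other 10 genes had means of 1.20 (GH9B11) to 37.9 (GH9A3), the last being a membrane-anchored enzyme of the KORRIGAN type.

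In the TBL family, TBL38 averaged 414 ± 43.5, TBL36 averaged 359.5 ± 38.4 and TBL39 averaged 269 ± 8.88 (SD, n = 7). The xylan acetyltransferase genes TBL30 (127 ± 24.2), TBL35 (98.1 ± 3.76) and TBL28 (74.5 ± 8.54) passed the minimum, whereas TBL34 (47.7) and TBL32 (48.0) missed it narrowly. The probe set of TBL32 ends in _s_at, a suffix for probes that can read more than 1 transcript. Of the mannan acetyltransferase genes, TBL25 averaged 94.3 ± 13.9, while TBL23 (35.6) and TBL26 (26.1) were below the minimum. The lowest TBL signals were those of TBL42 (3.61), TBL20 (4.43), TBL15 (5.49) and TBL43 (8.17).

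TBL39, TBL35 and GH9B7 varied little over the 7 arrays. TBL39 lay between 255 and 278, TBL35 between 92.4 and 102, and GH9B7 between 488 and 547. Their standard deviations of log2(signal + 16) were 0.045, 0.048 and 0.059, at percentiles 0.314, 0.57 and 1.46 of all tested probe sets. At the other end stood EXPA4 (0.64), EXPB3 (0.58) and EXLB1 (0.54), with ratios of highest to lowest signal of 4.43, 3.47 and 2.93. The median standard deviation was 0.21 over the 30 members and 0.18 over all 10183 tested probe sets.

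Replicate 2 was compared with replicate 1 because the labels name 2 biological replicates and the rule asks how the families followed them. Of the 30 tested members, 2 changed by limma with a Benjamini-Hochberg adjusted p under 0.05, EXLB1 upward and GH9B13 downward in replicate 2. Over all tested probe sets 11.5% were called, 5.63% as higher and 5.83% as lower, so the members' share was no larger than the background. With those 2, 7 members had an unadjusted p under 0.05, beside 31.6% of all tested probe sets. The 5 that did not pass were GH9C1, XTH20, TBL37, TBL16 and TBL18.

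EXLB1 had signals of 205 (treated line), 277 (untreated line), 252 (treated wild type) and 199 (untreated wild type) in replicate 2, against 137 (untreated line), 113 (treated wild type) and 94.4 (untreated wild type) in replicate 1. The lowest replicate 2 array was above the highest replicate 1 array. The means were 233 ± 37.4 (SD, n = 4) in replicate 2 and 115 ± 21.2 (SD, n = 3) in replicate 1, a log2 difference of 0.90 ± 0.16 (SE, limma adjusted p 0.0147). Within the groups that have both replicates the difference was 0.94 in the untreated line, 1.06 in the treated wild type and 0.96 in the untreated wild type. Without the 2 arrays of highest 3′/5′ ratio it was 0.72 (adjusted p 0.00639), and with the ratio as a term 0.70 (adjusted p 0.0218).

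GH9B13, a secreted endoglucanase of subclass B, moved the other way. Its signals in replicate 2 were 124 (treated line), 96.9 (untreated line), 83.7 (treated wild type) and 90.0 (untreated wild type), against 146 (untreated line), 163 (treated wild type) and 150.2 (untreated wild type) in replicate 1. The groups did not overlap, with means of 98.6 ± 17.5 (SD, n = 4) in replicate 2 and 153 ± 8.63 (SD, n = 3) in replicate 1. The log2 difference was -0.62 ± 0.13 (SE, limma adjusted p 0.0229), -0.53 (adjusted p 0.0219) without the 2 arrays of highest 3′/5′ ratio and -0.54 (adjusted p 0.0421) with the ratio as a term. The GAPDH and ubiquitin ratios separated the replicates on the remaining arrays too, so replicate and ratio cannot be fully told apart. Within groups it was -0.52 in the untreated line, -0.84 in the treated wild type and -0.65 in the untreated wild type.

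Both calls were lost when any 1 of 4 arrays was left out of this fit of 3 residual degrees of freedom, and both differences kept their sign. With 1 array left out, EXLB1 stood at 0.82 (untreated wild type of replicate 1, adjusted p 0.0710), 0.95 (treated wild type of replicate 1, 0.141), 1.01 (untreated line of replicate 1, 0.0983) and 0.79 (treated wild type of replicate 2, 0.0551). GH9B13 lost its call without the same arrays, at -0.58 (adjusted p 0.0944), -0.58 (0.219), -0.75 (0.101) and -0.53 (0.0807). In the same order 198, 39, 62 and 264 of all tested probe sets passed in these fits, against 1167 with all arrays. Without the untreated wild type of replicate 2, 7 of the 30 members passed, beside 2850 of all 10183 tested probe sets. The 7 were EXLB1 (1.00), XTH16 (0.49), GH9B13 (-0.68), EXPA4 (-0.95), EXPB3 (-1.04), GH9C2 (-0.80) and TBL16 (-0.66). The leaf marker RCA was also lower in replicate 2 (-0.82 ± 0.13, SE, adjusted p 0.0112) and LHCB4.1 stood at -0.43 ± 0.15 (adjusted p 0.0968), with no overlap between replicates for either. Their part in the result was not tested.

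Besides EXLB1, 5 members had all replicate 2 arrays above all replicate 1 arrays, where 16.8% of all tested probe sets were so placed. GH9C1 had signals of 381 to 453 in replicate 2 and 287 to 372.5 in replicate 1, a log2 difference of 0.41 ± 0.12 (SE, adjusted p 0.0656). XTH20 had 122 to 162 in replicate 2 and 103 to 113 in replicate 1 (0.34 ± 0.11, adjusted p 0.0768). TBL18, TBL30 and XTH16 stood at 0.25 ± 0.10, 0.32 ± 0.14 and 0.33 ± 0.15. GH9B13 was the only member with all replicate 2 arrays below, a placing found for 19.8% of all tested probe sets. The direction of the replicate difference was alike in all 3 groups with both replicates for 14 of the 30 members, 10 higher and 4 lower, beside 54.4% of all tested probe sets.

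**Figure D2:**
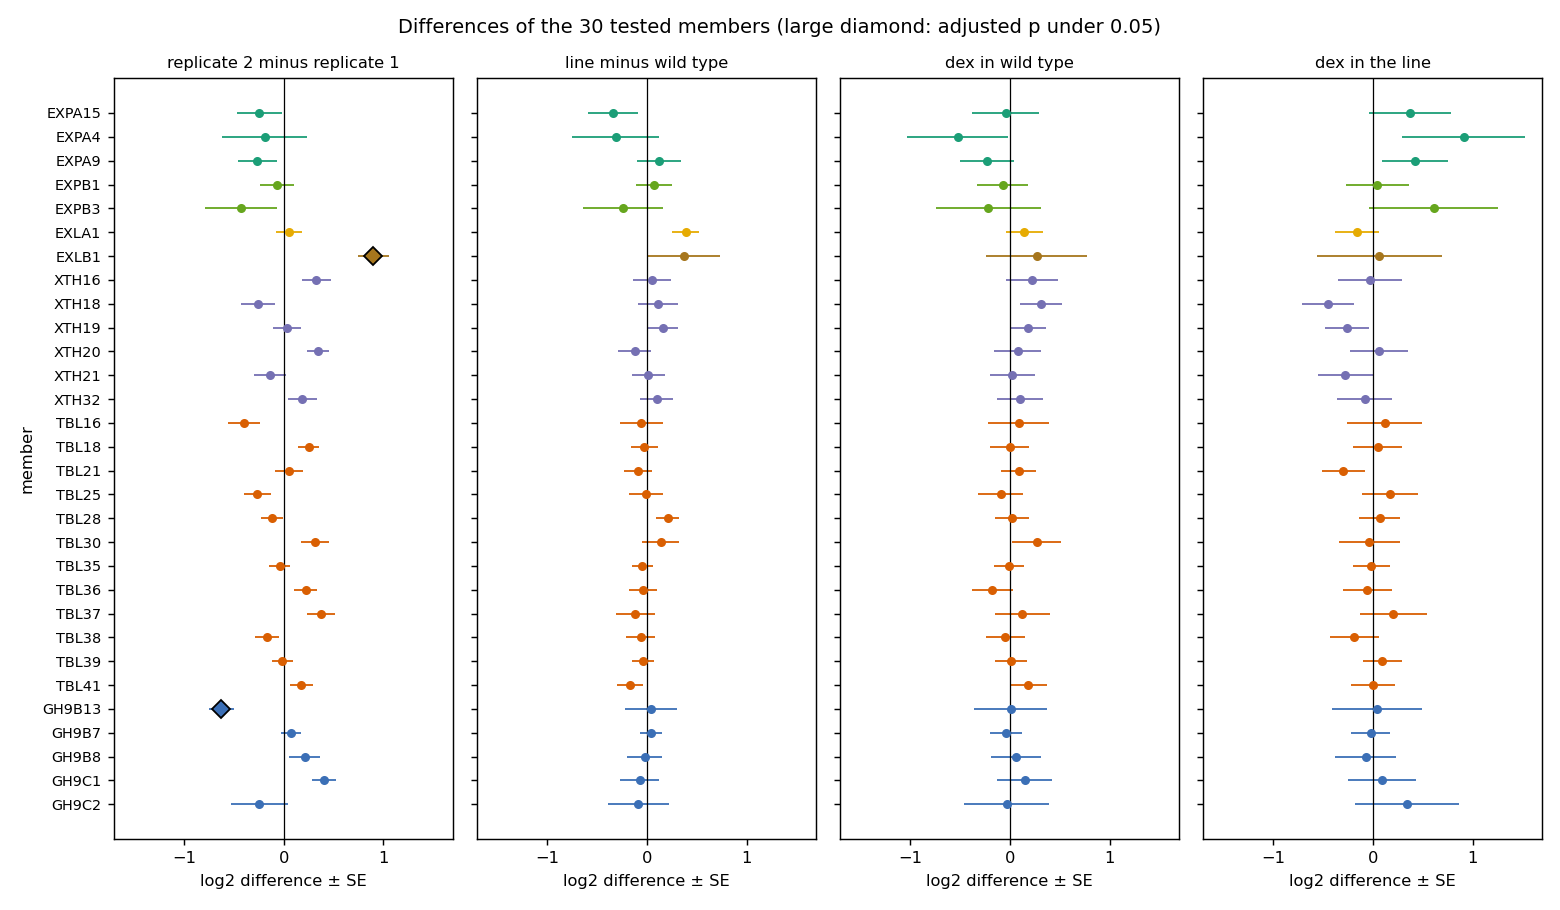
Log2 differences with their standard errors for the 30 tested members in 4 comparisons, by family from top to bottom. EXLB1 (0.90) and GH9B13 (-0.62) passed the threshold in the replicate comparison, and no member passed in the other 3.

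All 5 tested EXPA and EXPB genes had their lowest signal on 1 array, the untreated line of replicate 2, EXPB1 as a tie. So did GH9C2, TBL16, TBL25, TBL35, TBL39 and XTH21, which makes 11 of the 30 members, beside 24.1% of all tested probe sets. On the same array 6 members had their highest signal (EXLA1, EXLB1, TBL36, TBL37, XTH16 and XTH19), beside 23.3% of all tested probe sets.

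EXPB3 had a signal of 145 in the untreated line of replicate 2, against 426 in the treated line, 504 in the untreated line of replicate 1, 308 and 408 in the treated wild type and 474 and 361 in the untreated wild type (replicate 2 first in each pair). EXPA4 had 94.3 on that array, against 328 in the treated line, 288 in the untreated line of replicate 1, 187 and 258 in the treated wild type and 417.5 and 248 in the untreated wild type. For both genes the treated wild type of replicate 2 had the second lowest signal. These were the arrays with the highest and the second highest 3′/5′ ratio.

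EXPA15 was at 102 in the untreated line of replicate 2 and between 204 and 234 on the other 6 arrays. EXPA9 was at 84.4 there and between 101 and 158 elsewhere, and EXPB1 was at 62.9 there, a value it shared with the untreated wild type of replicate 1. The dim EXPA8 was listed at 2.60 there and at 16.6 to 48.4 on the other arrays. GH9C2 was at 246 there, against 344 to 555 elsewhere. Of the 30 members, EXPA4, EXPA9, EXPB3, TBL16 and TBL25 had their 2 lowest signals on the 2 arrays of highest ratio, beside 20.3% of all tested probe sets. EXLB1, GH9C1, TBL30, TBL37 and XTH16 had their 2 highest signals on them, beside 18.5%. The part of the ratio in these levels was not tested.

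**Figure D3:**
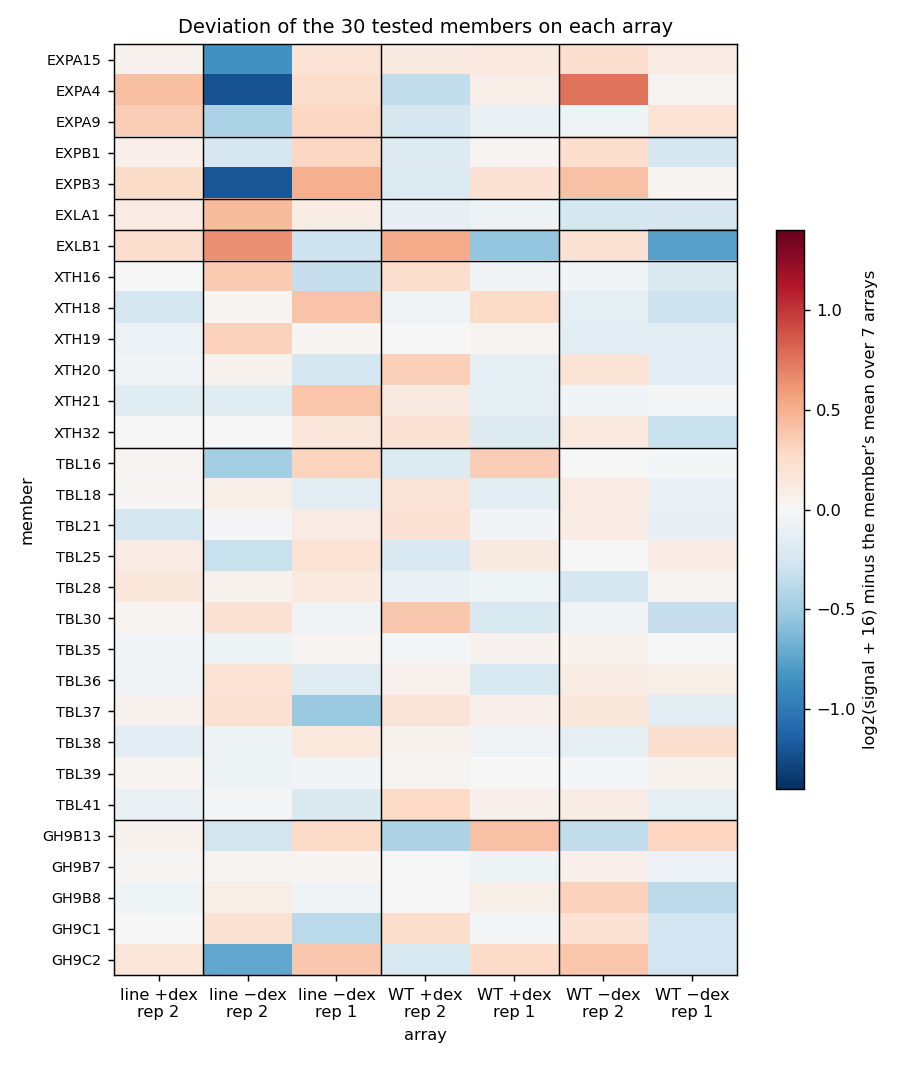
Deviation of log2(signal + 16) of each tested member from its own mean over the 7 arrays, with families separated by horizontal lines and groups by vertical lines. EXPA4, EXPB3, EXPA15 and GH9C2 are lowest in the untreated line of replicate 2, and EXLB1 is above its mean on all 4 arrays of replicate 2.

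**Figure D4:**
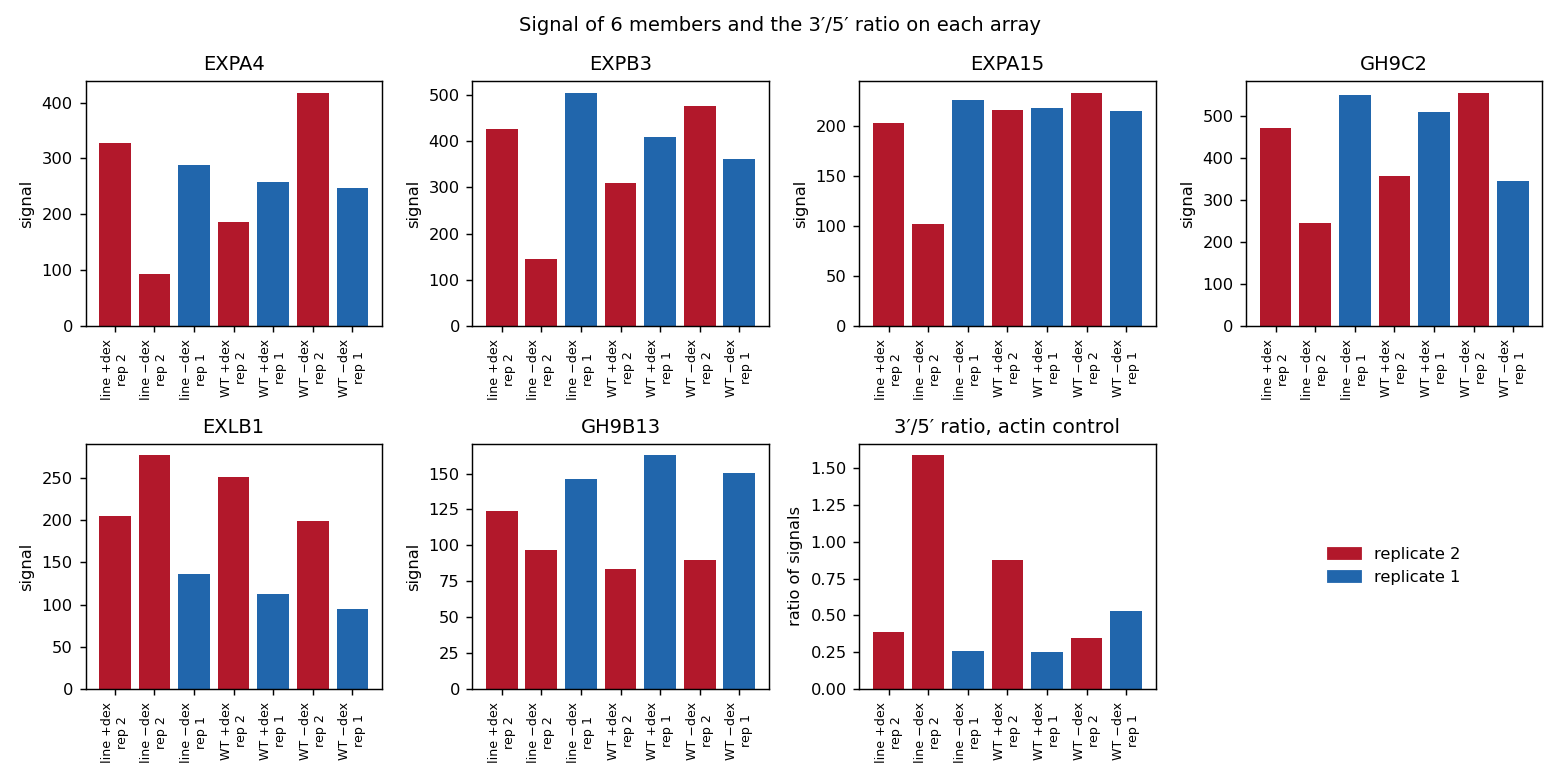
Signals of EXPA4, EXPB3, EXPA15, GH9C2, EXLB1 and GH9B13 on each array, and the 3′/5′ ratio of the actin control, with replicate 2 in red and replicate 1 in blue. EXPB3 stood at 145 where the ratio was 1.59, and at 308 to 504 on the other arrays.

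Line and wild type were set against each other to ask how the families stood in plants that carry the 35S-driven fusion gene. By limma 0 of the 30 members passed over both treatments, beside 0% of all tested probe sets, and 1 had an unadjusted p under 0.05, beside 0.54%. The median log2 difference was -0.022 over the members and near 0 over all tested probe sets, and no member differed by more than 0.39. The medians were -0.31 for the 3 EXPA, -0.085 for the 2 EXPB, 0.073 for the 6 XTH, -0.040 for the 12 TBL and -0.020 for the 5 GH9 genes.

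EXLA1 had the largest difference. Its signals were 373 in the treated line and 471 and 371 in the untreated line (replicate 2 first), against 316 and 326 in the treated and 288 and 289 in the untreated wild type. Each line array was above each wild type array. The log2 difference was 0.39 ± 0.14 (SE, limma adjusted p 1.00), with 0.45 within replicate 2 and 0.26 within replicate 1. TBL28, a xylan acetyltransferase gene, was the other member without overlap, at 77.2 to 84.9 in the line, against 60.7 to 76.6 in the wild type, a difference of 0.21 ± 0.12. Such a placing was found for 1.14% of all tested probe sets with the line higher and 0.874% with the line lower, where no member was so placed. With the replicate number as a block 0 members passed, beside 0.00982% of all tested probe sets, and 1 had an unadjusted p under 0.05, beside 1.59%.

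EXLB1 stood at 0.37 ± 0.36 and XTH19 at 0.16 ± 0.15, both with overlapping groups. With 1 array left out EXLB1 ran from 0.11 to 0.59 and XTH19 from 0.042 to 0.34, and EXLB1 was at 0.19 with the replicate number as a block. The most negative values were -0.34 ± 0.25 for EXPA15, -0.31 ± 0.44 for EXPA4, -0.24 ± 0.40 for EXPB3 and -0.17 ± 0.13 for TBL41. For EXPA15, EXPA4 and EXPB3 the difference was -0.58, -0.61 and -0.58 within replicate 2 and 0.058, 0.18 and 0.38 within replicate 1. The negative values of these 3 genes therefore came from replicate 2. Without the 2 arrays of highest 3′/5′ ratio they stood at -0.034, 0.053 and 0.18. TBL41 was negative within both replicates (-0.25 and -0.17).

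Without dexamethasone, 0 of the 30 members passed by limma (0% of all tested probe sets) and 1 had an unadjusted p under 0.05 (0.403%). EXLA1 stood at 0.51 ± 0.18 (SE, adjusted p 1.00), EXLB1 at 0.46 ± 0.51, XTH18 at 0.42 ± 0.21 and XTH19 at 0.34 ± 0.18. Within replicate 2 these genes were at 0.68, 0.44, 0.15 and 0.48, and within replicate 1 at 0.34, 0.47, 0.68 and 0.19. With the replicate number as a block EXLB1 stayed at 0.46, with an SE of 0.14. XTH18 had signals of 686 and 892 in the untreated line, against 617 and 549 in the untreated wild type (replicate 2 first). XTH19 had 437 and 352.5 in the untreated line, against 308 and 307 in the untreated wild type. Together with EXLA1 and TBL28 these made 4 members whose line arrays lay above the wild type arrays, beside 9.94% of all tested probe sets. TBL39 was the only member with its line arrays below, beside 8.47%. With the replicate number as a block 3 members had an unadjusted p under 0.05, beside 3.74%, and 0 passed.

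On the negative side EXPA4 stood at -0.89 ± 0.50, EXPB3 at -0.57 ± 0.53, EXPA15 at -0.51 ± 0.34 and GH9C2 at -0.24 ± 0.42. Within replicate 2 they were at -1.97, -1.61, -1.08 and -1.12, and within replicate 1 at 0.20, 0.46, 0.069 and 0.65. The sign of each was thus opposite in the 2 replicates. Adjusted for the 3′/5′ ratio, EXPA4 stood at -0.60, EXPB3 at -0.26, EXPA15 at -0.34 and GH9C2 at -0.0063, and on the positive side EXLB1 at 0.19. Of the 30 members, 4 differed by more than 0.5 in size (13.3%), beside 1.73% of all tested probe sets. Apart from EXLA1 these were EXPA4, EXPB3 and EXPA15, the genes lowest in the untreated line of replicate 2.

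With dexamethasone in both, the 1 array of the line was set against 2 of the wild type, and 0 of the 30 members passed (0% of all tested probe sets by limma), with 0 at an unadjusted p under 0.05 (0.403%). EXPA4 stood at 0.55 ± 0.62 (SE), EXPA9 at 0.51 ± 0.33, EXPB3 at 0.25 ± 0.65 and EXLB1 at 0.25 ± 0.63. With 1 array left out EXPA4 ran from 0.33 to 0.76 and EXPB3 from 0.060 to 0.45, and EXPB3, adjusted for the 3′/5′ ratio, stood at 0.086. EXPA9 had 158 in the treated line, against 101 and 111 in the treated wild type (replicate 2 first). The most negative values were -0.34 ± 0.26 for XTH18, -0.32 ± 0.22 for TBL21, -0.28 ± 0.22 for TBL41 and -0.16 ± 0.28 for XTH21. All 6 tested XTH genes had negative values (-0.34 to -0.013, median -0.12), beside 4874 negative values among 10183 tested probe sets. The line's array lay above both wild type arrays for 8 members, beside 23% of all tested probe sets, and below both for 10, beside 22.6%. With the replicate number as a block EXLB1 stood at -0.24, and 1 member had an unadjusted p under 0.05, beside 3.79%.

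Dexamethasone in the wild type shows what the steroid does without the fusion protein. By limma 0 of the 30 members passed (0% of all tested probe sets) and 0 had an unadjusted p under 0.05 (0.187%). XTH18 stood at 0.31 ± 0.21 (SE), EXLB1 at 0.27 ± 0.51, TBL30 at 0.27 ± 0.25 and XTH16 at 0.22 ± 0.26, while EXPA4 stood at -0.52 ± 0.50, EXPA9 at -0.23 ± 0.27, EXPB3 at -0.21 ± 0.53 and TBL36 at -0.17 ± 0.20. XTH18 had 649 and 815 in the treated wild type, against 617 and 549 in the untreated wild type (replicate 2 first). All 6 tested XTH genes had positive values (0.025 to 0.31, median 0.14), beside 5017 positive values among 10183 tested probe sets. EXPA4 was at -1.10 within replicate 2 and 0.054 within replicate 1, and EXLB1 at 0.31 and 0.22. Treated arrays lay above untreated ones for EXLA1, XTH18 and XTH19, beside 6.78% of all tested probe sets, and below for EXPA9 and TBL36, beside 7.79%. With the replicate number as a block 0 members had an unadjusted p under 0.05, beside 1.13%.

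Dexamethasone in the line addresses the induction of the fusion protein. By limma 0 of the 30 members passed (0% of all tested probe sets) and 0 had an unadjusted p under 0.05 (0.53%). EXPA4 stood at 0.91 ± 0.62 (SE), EXPB3 at 0.61 ± 0.65, EXPA9 at 0.42 ± 0.33 and EXPA15 at 0.37 ± 0.41. Their untreated line arrays were far apart: EXPB3 had 426 in the treated line, against 145 and 504 in the untreated line of replicates 2 and 1. Against the untreated line of replicate 1 alone, EXPB3 stood at -0.23 and EXPA15 at -0.14, and EXPA4 and EXPA9 at 0.18 and 0.056. Within replicate 2, the replicate of the treated array, EXPA4 stood at 1.64, EXPB3 at 1.46, EXPA9 at 0.79 and EXPA15 at 0.89. Fits with the replicate number as a block gave 1.11, 0.89, 0.61 and 0.53. The direction for EXPB3 and EXPA15 thus depended on which untreated line array was used. The values against replicate 1 also carry the difference between replicates. Adjusted for the 3′/5′ ratio, EXPA4 stood at 0.58, EXPB3 at 0.24, EXPA9 at 0.27 and EXPA15 at 0.18.

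Of the 6 XTH genes 5 had negative values (-0.45 to 0.062 over all 6, median -0.17), beside 5060 negative values among 10183 tested probe sets. XTH18 had 569 in the treated line, against 686 and 892 in the untreated line (replicate 2 first), a difference of -0.45 ± 0.26 (SE). XTH19 had 326 in the treated line, against 437 and 352.5 in the untreated line (-0.26 ± 0.22). TBL21 stood at -0.30 ± 0.22 and XTH21 at -0.28 ± 0.28. For XTH18, XTH19 and TBL21 the treated array was below both untreated arrays, as for 4 further members (GH9B7, GH9B8, TBL38 and XTH32), a placing found for 24.1% of all tested probe sets. XTH21 stood at 0.0017 within replicate 2. The treated array was above both for EXPA4, EXPA9, TBL28 and TBL39, beside 21.9%. With the replicate number as a block 2 members had an unadjusted p under 0.05, beside 5.92%. EXLB1 stood at 0.064 ± 0.63 without the block, at -0.43 ± 0.18 with it and at -0.41 within replicate 2.

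Subtracting the dexamethasone response of the wild type from that of the line gives the interaction of both factors. By limma 0 of the 30 members passed (0% of all tested probe sets) and 0 had an unadjusted p under 0.05 (0.746%). EXPA4 stood at 1.43 ± 0.80 (SE), EXPB3 at 0.82 ± 0.84, EXPA9 at 0.65 ± 0.43 and EXPA15 at 0.42 ± 0.53. XTH18 stood at -0.76 ± 0.33, XTH19 at -0.44 ± 0.28, TBL21 at -0.38 ± 0.28 and EXLA1 at -0.30 ± 0.29. The 3 EXPA and 2 EXPB genes were all positive (medians 0.65 and 0.47) and the 6 XTH genes all negative (median -0.28). Over all 10183 tested probe sets the median was near 0, with 5060 positive and 5123 negative values. When the array of highest 3′/5′ ratio, untreated line replicate 2, was left out, EXPB3 turned to -0.020 and EXPA15 to -0.10. With the ratio as a term EXPB3 stood at 0.34 and EXPA15 at 0.16. This comparison shares its arrays with the preceding ones, and within replicate 2 XTH18 was at -0.33, XTH19 at -0.57 and EXPA4 at 2.74. With the replicate number as a block 4 members had an unadjusted p under 0.05, beside 7.08% of all tested probe sets. EXLB1 stood at -0.20 ± 0.81 without the block, at -0.70 ± 0.22 with it and at -0.72 within replicate 2.

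Some members lie side by side in the genome, with no other protein-coding gene between them in the RefSeq annotation (TAIR10.1). Such neighbours often arose by tandem duplication, and probes may not separate close copies. There were 7 such pairs: XTH18 and XTH19, EXLA3 and EXLA1, TBL28 and TBL30, TBL21 and TBL19, GH9B11 and GH9B12, GH9B16 and GH9B17, and GH9B17 and GH9B18. Only the XTH18 and XTH19 pair and the TBL28 and TBL30 pair had both genes above the minimum. TBL28 and TBL30 differed by replicate, at -0.12 ± 0.11 (SE) and 0.32 ± 0.14, neither past the threshold.

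Other wall genes were taken from lists of cellulose, xyloglucan, xylan and pectin synthesis, wall acetylation, acidification and sensing, of which 22 genes had a probe set and 14 passed the minimum. By limma 0 of the 14 passed in any of the 7 comparisons. Of all tested probe sets 11.5% passed in the replicate comparison and 0% in each of the others. A count of 0 therefore does not set apart a list as short as these 14 genes. In the replicate comparison their median was 0.11, with 10 of 14 positive, beside -0.018 over all tested probe sets. THE1, a receptor kinase that senses wall damage, stood at 0.43 ± 0.12 (SE, adjusted p 0.0587), and AT3G03210, from the list of wall acetylation outside the TBL family, at 0.38 ± 0.11 (adjusted p 0.0534). For dexamethasone in the line 13 of 14 were positive, with a median of 0.077, beside 5123 of 10183 tested probe sets with a median of 0.0014. Several of the 13 were near 0, such as FER, a receptor kinase of the same family as THE1, at 0.0002. The largest value was 0.67 ± 0.27 for CSLC04, a xyloglucan glucan synthase gene, at 305.5 in the treated line, against 203 and 171 in the untreated line (replicate 2 first).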

How the data were processed

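The authors' deposited values are signal intensities, 1 linear value per probe set and array for 22810 probe sets, scaled so that the 2% trimmed mean was 100.0 on each array. How probes were summarised, and with which software, is not stated in the labels. Group and replicate number came from the sample labels. Apart from 64 control probe sets, every probe set whose signal averaged at least 50.0 was tested, 10183 in all, on log2(signal + 16), which understates the change of dim genes. Fits were made by lmFit and eBayes (with a trend) of limma 3.58.1, R 4.3.3, with Benjamini-Hochberg adjustment over all tested probe sets and a threshold of 0.05. Line over both treatments was fitted with dexamethasone as an additive term, the replicate comparison with line and dexamethasone as additive terms, and the other contrasts on 4 group means, the treated line's single array being taken to vary as much as other groups. The replicate numbers paired the arrays: deviations from group means correlated across all tested probe sets at 0.47 to 0.83. Across the tested members they correlated at 0.71, 0.36 and 0.08, the last for the untreated line and the untreated wild type. The fit with the number as a block was an alternative. The treated line's only array is of replicate 2. Without the block, the line and dexamethasone comparisons that use this array therefore carry part of the replicate difference. For the line with dexamethasone, EXLB1 stood at 0.25 without the block and at -0.24 with it. The design text calls the replicates biological and gives no more on their source, so p-values measure the spread between these arrays, and their number limits the precision.

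Gene names came from the platform annotation, and all 62 members matched a RefSeq gene by ID. The members, lists and comparisons were chosen with earlier results of these data known. Named were the 3 brightest members of each family, those past the threshold, and otherwise the 4 largest differences per direction in each comparison. TBL16, TBL35, EXPA8 and other members named by array or placing were named after their values were seen. So was EXLB1 for dexamethasone in the line and for the interaction. One gene, PMEAMT, matched a list by its letters only and was left out of it. The fits were checked on simulated data with independent noise. No replicate difference was simulated for the line and dexamethasone fits, so the check does not cover its effect on them. Alternatives were quantile normalization, median centring, adding 1 or 64 before the log, no filter or a minimum of 100, no trend, the replicate block, and leaving out each array. A term for the 3′/5′ ratio, and fits without the 2 arrays of highest ratio, were added after seeing the data.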

Additional observations from a re-analysis of the deposited data

How the results depend on the processing

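Of the count of members past the threshold, the 6 comparisons of line and dexamethasone stayed at 0 under each alternative run, with the replicate block, another scaling or an array left out. The block changed no call. In the replicate comparison the count was 2, 0 without the filter on signal (EXLB1 adjusted p 0.0510 and GH9B13 0.0620, over 22746 probe sets), and 0 to 7 with 1 array left out. All probe sets called in that comparison numbered 1167, 468 without the filter, 2457 with replicate as the only term, and 39 to 2850 with 1 array left out. Over the alternatives other than leaving out an array, EXLB1 ran from 0.70 to 0.98 and GH9B13 from -0.70 to -0.46.

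Of 50 differences named as the largest or as past the threshold, 14 changed sign under at least 1 alternative, none of them past the threshold. Without the 2 arrays of highest 3′/5′ ratio, EXPA4 (0.053) and EXPB3 (0.18) turned positive in the line over both treatments. With dexamethasone, EXLB1 in the line turned to -0.24 with the block and -0.25 with the block and quantile normalization. With 1 array left out, the line over both treatments ran from -0.89 to 0.20 for EXPA4 and -0.58 to 0.26 for EXPB3. Without dexamethasone it ran from -0.026 to 0.94 for EXLB1, -1.42 to 0.27 for EXPB3, -1.02 to 0.014 for EXPA15 and -0.79 to 0.32 for GH9C2, and with dexamethasone from -0.28 to 0.78 for EXLB1. Dexamethasone in the wild type ran from -0.26 to 0.80 for EXLB1 and -0.029 to 0.56 for TBL30. The fits with 1 array left out had no replicate block. Within replicates 2 and 1, EXLB1 was at 0.44 and 0.47 for the line without dexamethasone. For dexamethasone in the wild type EXLB1 was at 0.31 and 0.22. For the line with dexamethasone it was at -0.28 within replicate 2, the only replicate with both groups. Dexamethasone in the line ran from -0.23 to 1.46 for EXPB3, -0.14 to 0.89 for EXPA15 and -0.55 to 0.0017 for XTH21, and the difference of the responses from -0.020 to 1.67 for EXPB3 and -0.10 to 0.94 for EXPA15. The cause was not tested. Of the 48 named differences of line and dexamethasone, 41 moved by over 1.5 times when 1 array was left out, 16 when adjusted for the 3′/5′ ratio and 4 with the replicate block, among them EXPB3 in the line over both treatments (-0.16) and with dexamethasone (0.54). Leaving out the only treated line array gave no value for the 3 comparisons that need it. Each member had 1 probe set, so using all probe sets changed nothing.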
